A study of Homo sapiens with 12 samples.

Results

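HK2, an established cell line derived from human renal proximal tubule, was compared after long-term culture with and without knockdown of FLCN, the gene of folliculin. The 6 libraries compared here, of 12 in the series, are 3 of long-term FLCN knockdown cells, which carry a short hairpin RNA (shRNA) against FLCN, and 3 of long-term nontarget cells, which carry a control shRNA (shControl) and have the genotype label WT. Both groups had been grown for more than 120 passages by the labels, in serum-containing medium. The other 6 libraries, 3 of short-term nontarget and 3 of short-term FLCN knockdown cells below 30 passages, entered the same model and are quoted only where a long-term effect is set beside the short-term one. The shRNA lowers an mRNA without removing it, and the cells are stable clones. The sources do not say which clone gave which library, so the hairpin and the clone that carries it cannot be told apart, and as replicates may come from 1 clone the p-values measure only the spread between these libraries.

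Folliculin binds FNIP1 and FNIP2 and acts at the lysosome on the Rag GTPases RRAGC and RRAGD, which carry the amino acid signal to mTORC1, the kinase complex that drives cell growth. Through the same step it holds the transcription factors TFEB and TFE3 (the MiT/TFE factors, with MITF) in the cytoplasm, so that genes of lysosomes, of autophagy and of mitochondrial biogenesis are known targets of folliculin loss. Inherited loss of FLCN causes Birt-Hogg-Dubé syndrome, in which kidney tumours arise.

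Reads were counted per gene by the authors. The 3 nontarget libraries held 6262665 to 7592062 counts and the 3 knockdown libraries 6031734 to 8991051, and 13959 genes had enough counts to be tested with edgeR's quasi-likelihood test. CPM, a gene's counts relative to its library's normalized total, is the unit of all levels here, with means ± SD (n = 3). The adjusted p of a gene is its Benjamini-Hochberg value across all 13959 genes. A log2 fold change (log2FC) is knockdown minus nontarget, with its SE. Of the genes tested, 4119 passed an adjusted p of 0.05, which is 29.5%. They were split almost evenly, with 1909 genes (13.7%) higher and 2210 genes (15.8%) lower after knockdown, and these shares are the background for every gene list below. The large changes leaned to the lower side. Among the 922 genes that also changed by 2.5-fold (6.61%), 279 were higher (2.0%) and 643 were lower (4.61%), and at 8-fold or more 60 rose and 180 fell. Many changes were small, with 801 rises and 661 falls of less than 1.5-fold. In 5532 genes (39.6%) the 3 libraries of one group did not overlap those of the other. Of the 260 genes that the naming rule gave, 105 share exonic bases with another gene, among them several antisense transcripts, and since the library kit does not mark strand their reads cannot be told apart there. Over all genes the log2FC had a median of 0.000951.

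FLCN itself (chromosome 17, 17212212 to 17237188, GRCh38) had 9.9, 11.9 and 12.1 CPM in the nontarget and 6.69, 6.3 and 7.95 CPM in the knockdown libraries. Every knockdown library lay below every nontarget library, and the mean fell by 38.3% (log2FC −0.701, SE 0.178, edgeR adjusted p = 0.00611). Part of its exonic sequence is shared with the transcript AC055811.2. The partner gene FNIP2 had 24.3, 27.7 and 22.1 CPM in the nontarget and 11.9, 12 and 9.65 CPM in the knockdown libraries, again without overlap (log2FC −1.13, SE 0.152, edgeR adjusted p = 2.06e-05). FNIP1, the other partner, had 36, 33.2 and 28.3 CPM in the nontarget and 34.8, 36.8 and 26.4 CPM in the knockdown libraries, and its groups overlapped (edgeR adjusted p = 0.958). Of 9 Rag GTPase and Ragulator genes tested, LAMTOR2 and LAMTOR4 rose (1 of them without nontarget replicate 1 or knockdown replicate 3) and RRAGD fell, LAMTOR4 being named after its value was seen. LAMTOR2, a subunit of the Ragulator scaffold, went from 20.7 ± 1.6 to 33.1 ± 0.8003 CPM (log2FC 0.67, edgeR adjusted p = 5.12e-04).

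RRAGD had 8.83, 8.96 and 7.62 CPM in the nontarget and 4.04, 5.42 and 6.6 CPM in the knockdown libraries (log2FC −0.68, SE 0.213, edgeR adjusted p = 0.0215). The groups did not overlap, but the call was lost when nontarget replicate 1, nontarget replicate 2 or knockdown replicate 1 was left out, with an edgeR adjusted p of up to 0.13. Of the MiT/TFE factors, MITF fell from 87.3 ± 8.88 to 65.9 ± 5.48 CPM (log2FC −0.41, edgeR adjusted p = 0.00803), while TFE3 went from 95.8 ± 7.65 to 88.6 ± 12 CPM (edgeR adjusted p = 0.462) and TFEB from 5.85 ± 2.66 to 5.93 ± 1.45 CPM (edgeR adjusted p = 0.999), both with overlapping groups.

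Among 12 tested marker genes of MiT/TFE activity, 3 rose and 4 fell, the latter FLCN, which is the target of the hairpin, FNIP2, RRAGD and MAP1LC3B, the autophagosome protein LC3B, which was named after its value was seen. The risers were GPNMB, a lysosomal membrane glycoprotein, SQSTM1, the autophagy receptor p62, and PPARGC1A, the coactivator PGC-1 alpha that drives mitochondrial biogenesis. GPNMB had 5.35, 4.94 and 6.32 CPM in the nontarget and 10.7, 12.4 and 9.31 CPM in the knockdown libraries (log2FC 0.96, SE 0.266, edgeR adjusted p = 0.0109). SQSTM1 had 232, 268 and 283 CPM in the nontarget and 382, 378 and 457 CPM in the knockdown libraries (log2FC 0.64, SE 0.109, edgeR adjusted p = 2.36e-04). PPARGC1A had 25.9, 20.7 and 18.2 CPM in the nontarget and 56.3, 70.3 and 52.3 CPM in the knockdown libraries (log2FC 1.46, SE 0.166, edgeR adjusted p = 3.33e-06). In each of the 3 genes every knockdown library exceeded every nontarget library.

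Part of these markers did not keep the direction they had in the short-term cells. FNIP2 had 22.1 ± 1.56 CPM without and 47 ± 6.59 CPM with short-term knockdown (log2FC 1.09, edgeR adjusted p = 7.44e-05), so the short-term rise and the long-term fall differed by −2.22 on the log2 scale (edgeR interaction adjusted p = 1.10e-06). RRAGD likewise rose by 1.13 short-term and fell long-term, a difference of −1.81 (edgeR interaction adjusted p = 1.88e-04). GPNMB rose in both, by 3.06 and 0.96, and the long-term rise was the smaller (edgeR interaction adjusted p = 7.23e-04). PPARGC1A rose by 0.73 short-term and 1.46 long-term, and here the long-term rise was the larger by a narrow margin (edgeR interaction adjusted p = 0.0456). For SQSTM1 the effects, 0.98 and 0.64, did not differ beyond the test's threshold (edgeR interaction adjusted p = 0.163).

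**Figure D1:**
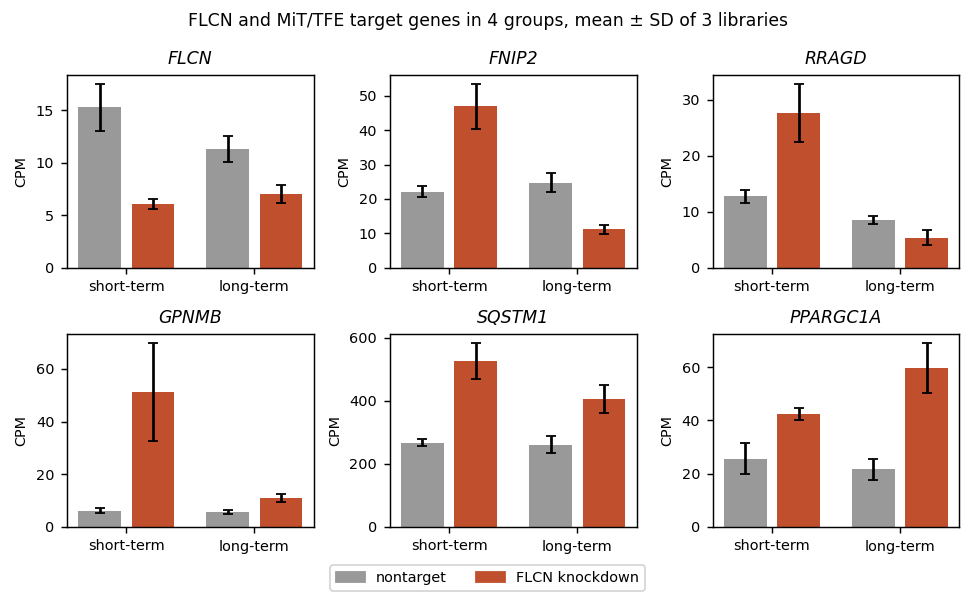
Bars give the mean CPM of 3 libraries (vertical axes, linear from 0, error bars SD) of FLCN and 5 MiT/TFE target genes in short-term and long-term cells (horizontal axes), grey for nontarget and orange for FLCN knockdown. FNIP2 and RRAGD stand above their nontarget bar in the short-term pair and below it in the long-term pair, where FNIP2 went from 24.7 ± 2.81 to 11.2 ± 1.33 CPM.

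The E-box CACGTG is the core of the site that MiT/TFE factors bind. In the RefSeq promoter table, which gives 250 bases before and 50 after each gene start on GRCh38.p14, 7.26% of 35116 promoters held it. Of the 12 tested markers and 1 other of that list, 11 had a promoter there, and PPARGC1A and AMDHD2 were the genes with an E-box. The PPARGC1A promoter is shown because its gene had the largest rise among these markers, with the E-box in capitals (chr4:24472856-24473155, minus strand, 5′ to 3′). This start is the one in the RefSeq table and lies upstream of the gene as GENCODE gives it (chromosome 4, 23755041 to 23904089), so whether it is the start used in these cells is not shown.
PPARGC1A: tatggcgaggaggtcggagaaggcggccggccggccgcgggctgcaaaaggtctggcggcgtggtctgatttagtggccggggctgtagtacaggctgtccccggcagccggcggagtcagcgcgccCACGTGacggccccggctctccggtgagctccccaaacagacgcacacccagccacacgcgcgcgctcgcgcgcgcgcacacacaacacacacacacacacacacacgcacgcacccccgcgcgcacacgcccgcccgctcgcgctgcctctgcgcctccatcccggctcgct
The match is a description of these letters and not evidence of binding. For the proton pump of the lysosome, 3 of 17 promoters (17.6%) held the E-box, and for lysosomal hydrolases 5 of 15 (33.3%).

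The lysosomal genes as a class leaned lower. Of 69 tested MiT/TFE target and lysosomal genes, 9 rose and 26 fell (FLCN, the target of the hairpin, among the falls), with a median log2FC of −0.20 against 0.000951 over all genes. The V-ATPase, the pump that acidifies the lysosome, had 10 of 17 tested subunit and accessory genes lower and 2 higher (median −0.38). Its membrane subunit ATP6V0A1 had 21.1, 19.8 and 23.9 CPM in the nontarget and 9.57, 8.79 and 8.97 CPM in the knockdown libraries and fell without overlap (log2FC −1.24, SE 0.18, edgeR adjusted p = 4.62e-05). Of 29 hydrolases, 9 fell and 4 rose, and of 11 membrane proteins 3 fell (5 with the replicate number as a block). The largest falls among the hydrolases were in cathepsins S and H, proteases that digest proteins in the lysosome. CTSS fell from 36.9 ± 3.66 to 9.1 ± 1.31 CPM (log2FC −2.01, edgeR adjusted p = 3.32e-07) and CTSH from 106 ± 11.1 to 38.6 ± 2.33 CPM (log2FC −1.45, edgeR adjusted p = 1.62e-07). The 4 hydrolase rises became 2 without knockdown replicate 2 or nontarget replicate 1.

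Around mTORC1, 4 of 30 tested regulators rose and 3 fell (5 fell without knockdown replicate 3), a share of 23.3% that lies below the background. The exception in size was DEPTOR, an inhibitor that binds both mTOR complexes, with 52.2, 47.6 and 43.9 CPM in the nontarget and 4.27, 2.93 and 2.37 CPM in the knockdown libraries (log2FC −3.86, SE 0.179, edgeR adjusted p = 9.85e-11). All knockdown libraries were below 5 CPM. DDIT4, an inhibitor of mTORC1 under stress, rose from 95.8 ± 22.6 to 159 ± 21.6 CPM (log2FC 0.72, edgeR adjusted p = 0.00483), and so did RICTOR, the scaffold of mTORC2, from 28.6 ± 3.72 to 47.6 ± 6.78 CPM (log2FC 0.74, edgeR adjusted p = 6.46e-04), and DEPDC5, a subunit of the GATOR1 brake, from 5.19 ± 0.318 to 8.76 ± 0.337 CPM (log2FC 0.75, edgeR adjusted p = 0.00634). PRR5, another mTORC2 subunit, went from 10.6 ± 2.74 to 6.42 ± 2.37 CPM (edgeR adjusted p = 0.024), with 3 of 6 fits that left out a library above the threshold (up to 0.14).

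Genes of the respiratory chain and of the cytosolic ribosome leaned upward. None of the 72 tested nuclear genes of the respiratory chain fell and 35 rose (48.6%), 15 of 33 in complex I and 20 of 39 in complexes II to V, and 71 of the 72 had a fitted value above 0 (median 0.31). The changes were small: the largest, NDUFB5 of complex I, had 91.5, 70.6 and 65.4 CPM in the nontarget and 173, 148 and 125 CPM in the knockdown libraries (log2FC 0.97, SE 0.144, edgeR adjusted p = 5.97e-05). ATP5PD and ATP5MG, subunits of the ATP synthase, rose by 0.96 and 0.82 on the log2 scale (edgeR adjusted p = 2.64e-04 and 7.91e-05), and COX7B of cytochrome oxidase rose by 0.77 (edgeR adjusted p = 0.00343). All 3 ranges were free of overlap between the groups.

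The mitochondrial genome showed the same direction. Of its 13 coding genes 9 rose and 0 fell, with a median of 0.51, and the summed level was 30830.0, 24530.0 and 24870.0 in the nontarget and 48220.0, 35860.0 and 32900.0 in the knockdown libraries, in CPM. Knockdown replicate 1 was the highest of all, and the count was 4 without it, when 1 fell, and 4 without nontarget replicate 2 (with the replicate block 11 rose and 1 fell). MT-CO1, a catalytic subunit of cytochrome oxidase, had 7509.7, 6329 and 5848 CPM in the nontarget and 13825, 10402 and 9349.8 CPM in the knockdown libraries (log2FC 0.77, SE 0.134, edgeR adjusted p = 2.74e-04). MT-ND5 of complex I rose from 774 ± 83.7 to 1332 ± 315 CPM (log2FC 0.78, edgeR adjusted p = 2.46e-04). The ribosomal RNA MT-RNR2 rose further, with 1780.1, 1545 and 1431 CPM in the nontarget and 8947, 6205 and 5140.3 CPM in the knockdown libraries (log2FC 2.09, SE 0.159, edgeR adjusted p = 4.36e-08), although the libraries were selected for polyadenylated RNA.

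Of 16 genes of the PGC-1 axis, 5 rose and SIRT1 fell. Beside PPARGC1A these included the nuclear receptor NR1H3 (LXR alpha), which had 2.81, 2.32 and 4.001 CPM in the nontarget and 8.07, 9.23 and 8.29 CPM in the knockdown libraries (log2FC 1.47, SE 0.239, edgeR adjusted p = 1.51e-04). PPARA, the receptor for fatty acids, rose from 16.7 ± 0.535 to 26.4 ± 2.18 CPM (log2FC 0.66, edgeR adjusted p = 0.0016). TFB1M, which methylates mitochondrial ribosomal RNA, went from 6.59 ± 1.32 to 12.3 ± 2.6 CPM (edgeR adjusted p = 0.0139, up to 0.0687 with a library left out). SIRT1, the deacetylase that acts on PGC-1 alpha, went from 47.6 ± 4.76 to 37.3 ± 1.81 CPM (edgeR adjusted p = 0.0186), and its call was lost without nontarget replicate 1 or knockdown replicate 3 and when no low-count filter was set.

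All 77 cytosolic ribosomal protein genes had a fitted value above 0, and 49 of them passed the test, 29 of 45 in the large and 20 of 32 in the small subunit, with a median of 0.37. Their summed level was 53580.0, 52530.0 and 50220.0 in the nontarget and 74120.0, 65940.0 and 68810.0 in the knockdown libraries, in CPM. The lowest knockdown library lay above the highest nontarget library. RPS7 rose most, with 658, 629 and 558 CPM in the nontarget and 1417, 1200.2 and 1125 CPM in the knockdown libraries (log2FC 1.02, SE 0.108, edgeR adjusted p = 1.53e-06), and RPS27A followed (log2FC 0.898, edgeR adjusted p = 2.33e-04). The count was 32 without knockdown replicate 1 or without nontarget replicate 2, and 71 with the replicate block. Ribosomal protein genes have many processed copies, between which reads can be shared, and RPS7 and RPS27A lie on chromosome 2, whose genes as a whole were higher, as given with the chromosomes.

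Metallothioneins, small proteins that bind zinc and copper and are induced by metal through the factor MTF1, rose as a family. Of the 7 tested metallothionein genes 6 rose, and MTF1 rose too. The promoters of MT2A and MT1X, from the RefSeq table on GRCh38.p14, are shown because these genes moved together. Capitals mark every match to the metal response core, TGCACNC or TGCGCNC on either strand, which 29.6% of all promoters held (chr16:56608334-56608633 and chr16:56682220-56682519, plus strand, 5′ to 3′).
MT2A: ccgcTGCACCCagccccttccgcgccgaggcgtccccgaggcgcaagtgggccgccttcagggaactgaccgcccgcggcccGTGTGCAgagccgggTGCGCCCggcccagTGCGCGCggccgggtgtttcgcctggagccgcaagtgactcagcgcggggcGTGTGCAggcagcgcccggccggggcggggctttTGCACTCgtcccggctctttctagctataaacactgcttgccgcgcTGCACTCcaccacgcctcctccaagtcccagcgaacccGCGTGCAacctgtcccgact
MT1X: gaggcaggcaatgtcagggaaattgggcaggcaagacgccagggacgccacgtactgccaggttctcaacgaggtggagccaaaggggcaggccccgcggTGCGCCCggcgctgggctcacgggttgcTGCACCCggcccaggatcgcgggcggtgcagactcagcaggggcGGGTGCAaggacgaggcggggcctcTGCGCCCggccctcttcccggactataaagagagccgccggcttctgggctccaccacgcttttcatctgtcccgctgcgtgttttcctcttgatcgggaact
The MT2A promoter holds 8 matches and that of MT1X 4. MT2A, the most abundant member, had 224, 279.6 and 364 CPM in the nontarget and 702, 629 and 1012 CPM in the knockdown libraries (log2FC 1.43, SE 0.172, edgeR adjusted p = 1.09e-05). MT1X had 8.42, 5.41 and 9.68 CPM in the nontarget and 23.4, 22.7 and 33.7 CPM in the knockdown libraries (log2FC 1.74, SE 0.223, edgeR adjusted p = 1.28e-05). MT1F had 6.55, 5.25 and 15.4 CPM in the nontarget and 40.8, 30.3 and 54 CPM in the knockdown libraries (log2FC 2.18, SE 0.33, edgeR adjusted p = 1.31e-04). No knockdown library of the 3 genes overlapped the nontarget range. These genes are near-identical copies of each other, so the authors' counting could have split or dropped shared reads. Of 18 zinc transporters 3 rose and 6 fell, but 2 rose and 3 fell when the 6 long-term libraries were fitted alone. SLC39A1, which imports zinc, fell by 84.9%, from 197 ± 16.9 to 29.7 ± 2.51 CPM (log2FC −2.73, edgeR adjusted p = 1.51e-11).

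The response to oxidative stress was mixed, with 8 of 32 NRF2 and antioxidant genes higher (5 without nontarget replicate 3) and 7 lower. HMOX1, the haem-degrading oxygenase, had 23.3, 23.3 and 32.9 CPM in the nontarget and 62.6, 53.7 and 76.3 CPM in the knockdown libraries (log2FC 1.27, SE 0.159, edgeR adjusted p = 9.83e-06), and NQO1, a quinone reductase, had 139, 142 and 134 CPM in the nontarget and 225, 226 and 199 CPM in the knockdown libraries (log2FC 0.65, SE 0.0947, edgeR adjusted p = 5.32e-05). Both rose without overlap. The exporter ABCC3 rose from 4.2 ± 0.758 to 9.06 ± 1.1 CPM (log2FC 1.11, edgeR adjusted p = 4.11e-04) and the reductase AKR1C3 from 2.61 ± 0.421 to 5.65 ± 2.13 CPM (log2FC 1.15, edgeR adjusted p = 0.0079). OSGIN1 went from 4.71 ± 1.92 to 2.22 ± 0.867 CPM (edgeR adjusted p = 0.0205, up to 0.111 with a library left out).

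Glycolysis and the HIF pathway split. Of 22 glycolytic genes 5 rose and 2 fell, with a median of 0.15 (3 rose without nontarget replicate 2, and 1 fell without nontarget replicate 3 or knockdown replicate 2). ENO1 and GPI, glycolytic enzymes, rose modestly (log2FC 0.48, edgeR adjusted p = 0.00119 and log2FC 0.59, edgeR adjusted p = 7.96e-04), while SLC2A1, the main glucose transporter, had overlapping groups (log2FC −0.04, edgeR adjusted p = 0.894). HK2, the hexokinase gene, went from 26.9 ± 3.07 to 39.4 ± 7.97 CPM (edgeR adjusted p = 0.0189) and lost its call in 3 of 6 fits with a library left out. The oxygen-sensing factors HIF1A and EPAS1 (HIF-2 alpha) both fell. EPAS1 had 455, 449.6 and 577 CPM in the nontarget and 242, 244 and 377 CPM in the knockdown libraries (log2FC −0.78, SE 0.174, edgeR adjusted p = 0.00288), and HIF1A fell from 692 ± 57.4 to 504 ± 47.8 CPM (log2FC −0.46, edgeR adjusted p = 0.00148). The targets outside glycolysis went both ways: of 15 tested, 3 rose and 5 fell. ADM, a vasodilator peptide, had 13.6, 15.9 and 18.7 CPM in the nontarget and 1.04, 1.03 and 1.18 CPM in the knockdown libraries (log2FC −3.88, SE 0.256, edgeR adjusted p = 6.38e-09), whereas LOX, which crosslinks collagen, rose from 19.8 ± 4.17 to 47.5 ± 8.48 CPM (log2FC 1.25, edgeR adjusted p = 2.92e-05).

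Of 40 genes of sterol and fatty acid synthesis 7 rose and 6 fell, without a common direction. The falls were 2 without knockdown replicate 2 and 3 without nontarget replicate 3, and the rises 4 without knockdown replicate 1. Single genes moved far. ACSL1, which activates long fatty acids, had 36.4, 37.7 and 33.7 CPM in the nontarget and 4.96, 4.98 and 3.22 CPM in the knockdown libraries (log2FC −3.01, SE 0.177, edgeR adjusted p = 1.48e-09). ACLY, which makes cytosolic acetyl-CoA, fell from 456 ± 48.9 to 183 ± 21 CPM (log2FC −1.32, edgeR adjusted p = 7.13e-07). SREBF1, a transcription factor of lipid synthesis, rose from 61.8 ± 9.56 to 92.6 ± 20.5 CPM (log2FC 0.58, edgeR adjusted p = 0.00765).

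Amino acid transporters fell as a group, 11 of 23 against 1 that rose (3 with the replicate block, 0 without knockdown replicate 1 or nontarget replicate 2), with a median of −0.36. SLC38A5, a glutamine and glycine transporter, had 17.1, 15.8 and 18.3 CPM in the nontarget and 0.231, 0.293 and 0.169 CPM in the knockdown libraries (log2FC −6.09, SE 0.289, edgeR adjusted p = 1.18e-10). SLC7A5, which carries leucine and other large amino acids, had 449, 476 and 720.4 CPM in the nontarget and 148, 128 and 234 CPM in the knockdown libraries (log2FC −1.7, SE 0.285, edgeR adjusted p = 3.48e-04). SLC1A3, a glutamate transporter, fell from 4.43 ± 1.48 to 0.228 ± 0.198 CPM (log2FC −4.16, edgeR adjusted p = 4.21e-06). The nontarget libraries exceeded the knockdown libraries throughout in these 3 genes. ATF4, the factor that induces many of them under amino acid shortage, went from 306 ± 32 to 329.7 ± 19.8 CPM (edgeR adjusted p = 0.517). ATF3, a related stress-induced factor, fell from 30.2 ± 4.01 to 12.1 ± 2.14 CPM (log2FC −1.33, edgeR adjusted p = 4.14e-06). Over the whole list of 63 ATF4 and amino acid genes 17 fell and 7 rose, and the rises were 15 with the replicate block but 4 without knockdown replicate 1 and 2 without nontarget replicate 2.

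Of 33 genes of the unfolded protein response and of chaperones 9 fell and 0 rose (14 fell and 1 rose with the replicate block, 5 fell without knockdown replicate 2, and 1 rose without knockdown replicate 3 or nontarget replicate 1). The share called, 27.3%, was near the 29.5% of all genes. CRYAB, a small heat shock protein, had 75.3, 80.5 and 78.6 CPM in the nontarget and 28.7, 27.4 and 28.1 CPM in the knockdown libraries (log2FC −1.48, SE 0.116, edgeR adjusted p = 5.23e-08), and its co-chaperone BAG3 fell from 87.2 ± 8.004 to 54.7 ± 3.99 CPM (log2FC −0.67, edgeR adjusted p = 1.29e-04). SEL1L of ER-associated degradation fell from 129.5 ± 22 to 89.2 ± 9.67 CPM (log2FC −0.54, edgeR adjusted p = 0.00366). The sensor ERN1 went from 5.49 ± 0.703 to 3.36 ± 0.122 CPM (edgeR adjusted p = 0.0236), a call that DESeq2 did not make and that was lost in 3 of 6 fits with a library left out.

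Of 30 tested genes of the entry to S phase 7 rose and 8 fell, 50% against 29.5% of all genes. CCND1, the D-type cyclin that activates CDK4 and CDK6, had 134, 161 and 141 CPM in the nontarget and 3.23, 3.66 and 3.55 CPM in the knockdown libraries and fell by 97.6% (log2FC −5.38, SE 0.141, edgeR adjusted p = 4.79e-14). The next largest change among them was that of CDKN1C. CCNE1 fell from 20.6 ± 2.67 to 14.2 ± 0.231 CPM (log2FC −0.54, edgeR adjusted p = 0.00679), and CCND2 had at most 0.129 CPM in any of the 6 libraries. CDK6 rose from 139 ± 18.6 to 235 ± 13 CPM (log2FC 0.76, edgeR adjusted p = 1.22e-04). In the short-term cells CCND1 had risen by 0.61 (edgeR adjusted p = 6.18e-04), and the difference between the effects was −5.99 (edgeR interaction adjusted p = 4.20e-13).

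Inhibitors of cyclin-dependent kinases changed in both directions. In a list of 8 genes that also holds SKP2, which degrades such inhibitors, 4 were higher and 3 lower. The direction of SKP2 is not given here, so these counts need not be of inhibitors only. CDKN1A (p21) had 59, 65.2 and 103 CPM in the nontarget and 29.3, 27.1 and 20.5 CPM in the knockdown libraries (log2FC −1.56, SE 0.189, edgeR adjusted p = 9.80e-06). CDKN1C (p57) had 79.3, 88.4 and 166 CPM in the nontarget and 20.8, 18.6 and 34.7 CPM in the knockdown libraries (log2FC −2.19, SE 0.438, edgeR adjusted p = 0.00226). Both fell without overlap, and their nontarget replicate 3 was the highest library. CDKN2C (p18), by contrast, had 28.7, 24.3 and 39.2 CPM in the nontarget and 81.8, 69.7 and 89 CPM in the knockdown libraries (log2FC 1.38, SE 0.148, edgeR adjusted p = 1.77e-06). CDKN2A (p16 and ARF) rose from 193 ± 47.7 to 314 ± 85.2 CPM (log2FC 0.697, edgeR adjusted p = 0.00979), and CDKN2B (p15) went from 10.2 ± 1.75 to 15.7 ± 2.69 CPM (edgeR adjusted p = 0.0146, lost in 3 of 6 fits with a library left out).

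Of the genes that copy DNA, none of 18 licensing and helicase genes passed edgeR's test, where the background share is 29.5%. An unadjusted p below 0.05 was reached by 4 of them, DESeq2 called 0, the replicate block called 3 higher and 1 lower, and 1 was higher without nontarget replicate 2. Of 24 polymerase and clamp genes 7 rose and 2 fell (37.5%), with 1 fall without knockdown replicate 1 or 3 or nontarget replicate 1 or 2, and 3 without knockdown replicate 2. Of 9 genes of nucleotide synthesis 2 rose (at most 1 with any library left out) and 1 fell. RPA1 and RPA3, which coat single-stranded DNA, rose from 219.9 ± 11.9 to 382 ± 19.7 CPM (log2FC 0.79, edgeR adjusted p = 2.24e-06) and from 63.5 ± 8.47 to 107 ± 20.002 CPM (log2FC 0.76, edgeR adjusted p = 8.21e-04). CTPS1, which makes CTP, fell from 539.6 ± 19.7 to 177 ± 16.3 CPM (log2FC −1.61, edgeR adjusted p = 3.51e-07), and UHRF1, which maintains DNA methylation, from 109 ± 18.5 to 67.1 ± 9.62 CPM (log2FC −0.701, edgeR adjusted p = 7.51e-04). Of 45 mitotic genes 8 rose and 1 fell (5 rose without knockdown replicate 1 or nontarget replicate 3, 2 fell without the latter, and the replicate block called 3 lower). SMC4 of condensin, CENPA, the histone of centromeres, and PTTG1 (securin) rose by 0.78, 0.77 and 0.61 on the log2 scale (edgeR adjusted p = 1.92e-04, 1.84e-04 and 8.67e-04). WEE1, the kinase that holds CDK1 inactive, fell from 79.1 ± 4.55 to 46.7 ± 3.49 CPM (log2FC −0.76, edgeR adjusted p = 2.09e-05). The proliferation marker MKI67 had 227, 257 and 253 CPM in the nontarget and 278, 338 and 229.8 CPM in the knockdown libraries, with overlapping groups (edgeR adjusted p = 0.343).

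Of 25 genes in a list of the transcriptional response to DNA damage, CDKN1A among them, 6 fell and 3 rose, with a median of −0.07. The risers, named after their values were seen, were CCNG1, FDXR and TNFRSF10C, with a log2FC of 0.57, 0.80 and 3.08 (edgeR adjusted p = 6.66e-04, 0.00381 and 0.00141). FAS, a death receptor, fell from 17.9 ± 0.524 to 7.26 ± 1.13 CPM (log2FC −1.29, edgeR adjusted p = 3.44e-05), and GDF15, a stress cytokine, from 31.8 ± 11.2 to 15.2 ± 3.08 CPM (log2FC −1.08, edgeR adjusted p = 0.00262). Of 24 damage sensors and repair genes 2 passed the test, both higher, a share of 8.33% against 29.5% of all genes. PRKDC, the catalytic subunit of DNA-PK, went from 434 ± 13.6 to 503 ± 108 CPM (edgeR adjusted p = 0.406). Of 29 genes of the BCL2 family and of cell death 9 fell and 0 rose (the replicate block called 2 higher, and 1 rose without knockdown replicate 3 or nontarget replicate 1), 4 of 8 protective genes (2 without knockdown replicate 1) and 5 of 21 death-promoting genes. The 31.0% called in this list was near the share over all genes. BCL2, which protects cells from death, fell from 31.6 ± 5.44 to 21.8 ± 1.38 CPM (log2FC −0.54, edgeR adjusted p = 0.00622) and PMAIP1 (NOXA) from 50.3 ± 4.48 to 32.7 ± 0.988 CPM (log2FC −0.62, edgeR adjusted p = 0.00278).

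**Figure D2:**
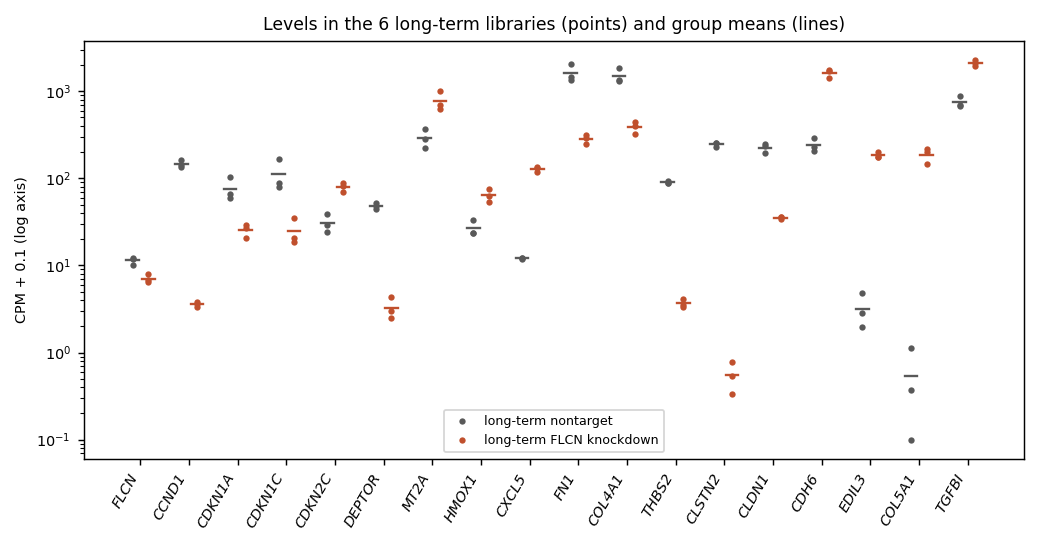
Points give the CPM of 18 genes in the 3 long-term nontarget (grey) and 3 long-term FLCN knockdown (orange) libraries on a log axis, with a small constant added so that 0 can be drawn, and short lines the group means. In all 18 genes the groups are apart, from FLCN, which fell by 38.3%, to CCND1, which fell by 97.6%, and CDH6, which rose to 6.64 times its nontarget level.

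Growth factor signals leaned lower. Of 46 genes of the EGF family, of other growth factors and their receptors and of their feedback regulators, 26 fell and 4 rose (7 rose with the replicate block), with a median of −0.52. Of the 10 EGF ligands and receptors among them 6 fell and 3 rose, with a median of −0.69. The summed level of these 10 nevertheless went up, from 576 to 613 CPM in nontarget to 718 to 773 CPM in knockdown libraries. ERBB3 (HER3), a receptor of neuregulins, had 6.95, 7.11 and 8.78 CPM in the nontarget and 1.27, 0.879 and 1.02 CPM in the knockdown libraries (log2FC −2.81, SE 0.284, edgeR adjusted p = 8.71e-07). PDGFRB, a receptor of PDGF, had 7.62, 5.25 and 9.29 CPM in the nontarget and 0.346, 0.439 and 1.18 CPM in the knockdown libraries (log2FC −3.56, SE 0.447, edgeR adjusted p = 1.00e-05). FGF5 had 4.41, 4.33 and 5.16 CPM in the nontarget and 0.115, 0.879 and 0.169 CPM in the knockdown libraries (log2FC −3.57, SE 0.545, edgeR adjusted p = 8.04e-05). The receptor kinase MERTK fell from 5.45 ± 1.12 to 1.42 ± 0.133 CPM (log2FC −1.94, edgeR adjusted p = 3.01e-05). Nontarget libraries were the higher ones in each of the 4. EGFR went from 218 ± 16.8 to 189 ± 7.21 CPM (edgeR adjusted p = 0.181), and AREG, an EGFR ligand, from 8.23 ± 1.16 to 5.5 ± 1.03 CPM (edgeR adjusted p = 0.0293, lost in 4 of 6 fits with a library left out). Of 15 feedback regulators 8 fell and 0 rose (the replicate block called 1 higher).

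WNT genes changed in both directions. Of 5 tested inhibitors and feedback genes 3 fell, but 1 without knockdown replicate 1 or knockdown replicate 2. WNT5A, a ligand of the beta-catenin-independent branch, had 4.68, 3.55 and 3.61 CPM in the nontarget and 20.3, 21.1 and 23 CPM in the knockdown libraries (log2FC 2.43, SE 0.193, edgeR adjusted p = 6.05e-08). WNT2B had 0.802, 1.39 and 1.03 CPM in the nontarget and 6.57, 5.27 and 6.43 CPM in the knockdown libraries (log2FC 2.5, SE 0.315, edgeR adjusted p = 1.03e-05). ROR1, a receptor of WNT5A, went the other way, with 38.4, 33.7 and 37.9 CPM in the nontarget and 10.8, 9.96 and 13 CPM in the knockdown libraries (log2FC −1.71, SE 0.16, edgeR adjusted p = 3.51e-07). NOTUM, which inactivates WNT ligands, fell from 4.13 ± 1.11 to 0.954 ± 0.385 CPM (log2FC −2.12, edgeR adjusted p = 2.22e-04) and the antagonist DKK1 went from 127 ± 10.4 to 95.2 ± 17.2 CPM (edgeR adjusted p = 0.0237, lost in 3 of 6 fits with a library left out). Of 9 effectors and targets none passed edgeR's test (0 at an unadjusted p below 0.05 and 0 by DESeq2, 1 higher with the replicate block), AXIN2 was too low to be tested (0 to 0.802 CPM), and LEF1 went from 2.48 ± 1.05 to 3.81 ± 0.401 CPM (edgeR adjusted p = 0.208). In all, 3 of 31 tested genes rose (5 with the replicate block) and 9 fell (5 without knockdown replicate 2).

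In the TGF-beta and BMP pathway 7 of 47 genes rose and 14 fell. TGFB1 rose while TGFB2 fell, with 105, 110.0 and 173 CPM in the nontarget and 219, 209 and 323 CPM in the knockdown libraries (log2FC 0.95, SE 0.204, edgeR adjusted p = 0.00237) against 262, 209 and 224 CPM in the nontarget and 146, 133 and 134 CPM in the knockdown libraries (log2FC −0.75, SE 0.114, edgeR adjusted p = 7.69e-05). The signal transducer SMAD3 had 106, 117 and 129 CPM in the nontarget and 211, 211 and 220.2 CPM in the knockdown libraries (log2FC 0.87, SE 0.172, edgeR adjusted p = 0.00108). TGFBI, a secreted target of the pathway, was among the largest rises in CPM, with 701, 686 and 884 CPM in the nontarget and 2119, 1948 and 2303 CPM in the knockdown libraries (log2FC 1.49, SE 0.133, edgeR adjusted p = 2.31e-07). On the BMP side, BMP2 fell from 18.8 ± 1.54 to 3.92 ± 1.62 CPM (log2FC −2.31, edgeR adjusted p = 9.58e-07), its antagonist GREM1 from 419 ± 16.7 to 114 ± 11.2 CPM (log2FC −1.88, edgeR adjusted p = 3.47e-10) and the co-receptor TGFBR3 from 16 ± 0.711 to 2.74 ± 0.599 CPM (log2FC −2.55, edgeR adjusted p = 6.05e-08). CTGF fell from 341 ± 12.2 to 106 ± 12 CPM (log2FC −1.69, edgeR adjusted p = 1.09e-07).

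Of 19 AP-1 and immediate early genes 6 fell and 3 rose (1 without knockdown replicate 2 or nontarget replicate 2). KLF6 fell from 149 ± 10.8 to 81.1 ± 1.73 CPM (log2FC −0.88, edgeR adjusted p = 2.14e-06) and MAFF from 16 ± 0.449 to 8.46 ± 1.92 CPM (log2FC −0.94, edgeR adjusted p = 0.00138), while FOSB went from 6.12 ± 1.01 to 10.5 ± 0.901 CPM (edgeR adjusted p = 0.0156, up to 0.0726 with a library left out). Of the proteins that bind insulin-like growth factors, IGFBP6 rose from 14.3 ± 1.76 to 40.7 ± 2.15 CPM (log2FC 1.51, edgeR adjusted p = 4.87e-07) and IGFBP7 fell from 99.98 ± 21.3 to 56.4 ± 7.73 CPM (log2FC −0.83, edgeR adjusted p = 0.00146). IGFBP3 had 48.1, 37.7 and 120.4 CPM in the nontarget and 139.5, 112 and 176 CPM in the knockdown libraries and did not pass (edgeR adjusted p = 0.157), but did with the replicate block (4.96e-05), in the 6 long-term libraries alone (0.0349) and without nontarget replicate 3 (0.03).

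Interferon-stimulated genes were lower, 19 of 46 against 1 higher (31 lower and 2 higher with the replicate block, 2 higher without nontarget replicate 3), with a median of −0.62. The summed level of the 46 genes went the other way, from 2380 to 2444 CPM in nontarget to 2846 to 3123 CPM in knockdown libraries. It was higher in the 14 sensors and factors (1145 to 1370 against 1940 to 2293 CPM), although 4 of these fell, 1 rose and their median was −0.29, and lower in the 32 effectors (1074 to 1235 against 829.5 to 905.9 CPM). Among the effectors, OAS1, which senses double-stranded RNA, had 4.95, 6.03 and 4.26 CPM in the nontarget and 0.577, 0.732 and 0.338 CPM in the knockdown libraries (log2FC −3.13, SE 0.594, edgeR adjusted p = 8.38e-04), its relative OASL 10.2, 11.9 and 10.5 CPM in the nontarget and 1.85, 1.9 and 1.69 CPM in the knockdown libraries (log2FC −2.56, SE 0.329, edgeR adjusted p = 1.43e-05) and IFI44 13.8, 18.7 and 12 CPM in the nontarget and 3.34, 3.66 and 2.71 CPM in the knockdown libraries (log2FC −2.17, SE 0.406, edgeR adjusted p = 7.96e-04). Every knockdown library of the 3 genes was below 4 CPM. TLR3, a receptor for double-stranded RNA, fell from 4.2 ± 0.987 to 0.279 ± 0.365 CPM (log2FC −3.63, edgeR adjusted p = 6.83e-05), and GBP1, an interferon-induced GTPase, from 16.3 ± 4.38 to 0.929 ± 0.676 CPM (log2FC −4.03, edgeR adjusted p = 1.49e-07). IFIT1 and ISG15 fell by −1.13 and −0.82 (edgeR adjusted p = 0.0181 and 0.0224), calls lost in 3 and 4 of 6 fits with a library left out.

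Antigen presentation by MHC class I followed, with 9 of 21 genes lower and 1 higher (2 higher with the replicate block or without nontarget replicate 3). HLA-B had 208, 253 and 274 CPM in the nontarget and 105, 118 and 149.9 CPM in the knockdown libraries (log2FC −0.98, SE 0.147, edgeR adjusted p = 7.37e-05), and reads of HLA genes can be shared between them or lost on alleles that differ from the reference. The peptide transporter TAP1 fell from 36.5 ± 2.54 to 14.2 ± 0.996 CPM (log2FC −1.37, edgeR adjusted p = 1.32e-06), the proteasome subunit PSMB8 from 50.9 ± 5.35 to 27.6 ± 1.04 CPM (log2FC −0.88, edgeR adjusted p = 6.38e-05) and NLRC5, the activator of these genes, from 5.08 ± 0.739 to 2.39 ± 0.339 CPM (log2FC −1.09, edgeR adjusted p = 0.00322). B2M, the invariant chain, went from 679 ± 82 to 644 ± 65.9 CPM (edgeR adjusted p = 0.734).

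Chemokines went against this direction. Of 6 tested, 4 rose and 1 fell (2 without knockdown replicate 3). CXCL5, which attracts neutrophils, had 12.2, 12.1 and 11.7 CPM in the nontarget and 134, 119 and 130.1 CPM in the knockdown libraries (log2FC 3.41, SE 0.159, edgeR adjusted p = 1.02e-10), and CXCL8 (interleukin-8) had 22.3, 23.6 and 27.1 CPM in the nontarget and 113, 97.7 and 72.8 CPM in the knockdown libraries (log2FC 1.96, SE 0.293, edgeR adjusted p = 1.15e-04). Both were above the nontarget range in every knockdown library. IL6 had overlapping groups (edgeR adjusted p = 0.617), and CCL2, too low to be tested, had at most 0.258 CPM in the nontarget and 1.15 to 1.35 CPM in the knockdown libraries. Of 16 cytokines and receptors 2 rose (1 without knockdown replicate 1, knockdown replicate 2 or nontarget replicate 1) and 7 fell. The receptor IL1R1 rose from 0.565 ± 0.194 to 4.998 ± 0.864 CPM (log2FC 3.12, edgeR adjusted p = 4.50e-06), and IL18 and the receptor IL6R fell from 50.2 ± 5.17 to 8.62 ± 0.476 CPM (log2FC −2.54, edgeR adjusted p = 1.37e-09) and from 18.4 ± 2.62 to 3.97 ± 0.516 CPM (log2FC −2.21, edgeR adjusted p = 1.17e-07). Of 12 NF-kB factors and feedback genes 6 fell and 2 rose.

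Of 25 complement and coagulation genes 5 rose and 11 fell. CFI, a protease that inactivates complement fragments, rose from 3.48 ± 1.05 to 22.4 ± 9.01 CPM (log2FC 2.68, edgeR adjusted p = 7.74e-06). C3 fell from 31.5 ± 10.03 to 8.9 ± 0.613 CPM (log2FC −1.82, edgeR adjusted p = 5.86e-06), C1S rose from 11.3 ± 1.75 to 21.9 ± 1.72 CPM (log2FC 0.95, edgeR adjusted p = 6.97e-04), and C1R went from 2.03 ± 0.705 to 3.62 ± 0.548 CPM (edgeR adjusted p = 0.0669). PLAT, the tissue plasminogen activator, fell from 30.5 ± 4.22 to 5.27 ± 1.46 CPM (log2FC −2.55, edgeR adjusted p = 3.81e-08).

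The extracellular matrix held many of the largest changes. Of 37 matrix glycoproteins and proteoglycans 21 fell and 7 rose, with a median of −0.50, and 75.7% were called, against 29.5% of all genes. FN1, fibronectin, had 1361, 1478 and 2032 CPM in the nontarget and 312, 287 and 251 CPM in the knockdown libraries (log2FC −2.52, SE 0.163, edgeR adjusted p = 8.60e-09). THBS2, an inhibitor of angiogenesis, had 93.3, 88.2 and 88.3 CPM in the nontarget and 3.46, 3.22 and 4.06 CPM in the knockdown libraries (log2FC −4.65, SE 0.21, edgeR adjusted p = 8.29e-11). The nontarget level of both was several times that of any knockdown library. NID2, a linker of basement membranes, fell from 649 ± 204 to 63.2 ± 8.01 CPM (log2FC −3.36, edgeR adjusted p = 3.20e-07), fibulin-2 (FBLN2) from 21.9 ± 7.75 to 0.344 ± 0.145 CPM (log2FC −5.99, edgeR adjusted p = 2.81e-09) and biglycan (BGN) from 23.8 ± 4.3 to 1.29 ± 0.585 CPM (log2FC −4.27, edgeR adjusted p = 5.35e-09). Rises were fewer. EFEMP1, an elastic fibre protein, rose from 52.8 ± 9.36 to 240.4 ± 11.8 CPM (log2FC 2.18, edgeR adjusted p = 7.89e-08), SPOCK1 from 90.3 ± 11.1 to 295 ± 47.4 CPM (log2FC 1.71, edgeR adjusted p = 3.99e-08) and lumican (LUM) from 0.958 ± 0.651 to 12.1 ± 2.71 CPM (log2FC 3.69, edgeR adjusted p = 1.90e-06).

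Of 14 tested nonfibrillar collagens 8 fell and 2 rose (1 to 5 rose with a library left out, 5 without nontarget replicate 3), with a median of −0.94. COL4A1 of the basement membrane had 1323, 1332 and 1855 CPM in the nontarget and 398, 326 and 446 CPM in the knockdown libraries (log2FC −1.95, SE 0.19, edgeR adjusted p = 1.51e-06), and COL4A2, encoded beside it, fell from 1322 ± 331 to 494 ± 88.5 CPM (log2FC −1.42, edgeR adjusted p = 2.01e-05). COL8A2 fell from 16.2 ± 1.47 to 1.12 ± 0.169 CPM (log2FC −3.83, edgeR adjusted p = 1.30e-09) and COL14A1 from 10.4 ± 1.22 to 0.615 ± 0.647 CPM (log2FC −4.16, edgeR adjusted p = 4.45e-07). Of 6 tested fibrillar collagens 2 rose and 1 fell (2 without knockdown replicate 3), with a median of 0.20, and whether the classes differ was not tested. The fall was in COL11A2, from 3.14 ± 1.58 to 0.449 ± 0.223 CPM (log2FC −2.86, edgeR adjusted p = 4.13e-04), a gene named after its value was seen. COL5A1 had 0.267, 0 and 1.03 CPM in the nontarget and 199, 147 and 215 CPM in the knockdown libraries (log2FC 8.61, SE 0.445, edgeR adjusted p = 1.93e-09), and COL11A1 had 0.669, 0 and 0.904 CPM in the nontarget and 50.5, 41.6 and 44.5 CPM in the knockdown libraries (log2FC 6.32, SE 0.288, edgeR adjusted p = 8.29e-11). Both were near 0 in the nontarget libraries, so their fold rests on few nontarget counts. COL1A1 had overlapping groups (edgeR adjusted p = 0.879), and COL1A2 held at most 0.169 CPM. Without nontarget replicate 3 the number of collagens that rose was 7 in place of 4.

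Of the enzymes that modify the matrix, 3 of 12 rose and 6 fell, among the latter transglutaminase 2 (TGM2), from 1272 ± 304 to 498 ± 145 CPM (log2FC −1.35, edgeR adjusted p = 4.05e-04). ADAM12, a membrane protease, had 2.67, 1.39 and 0.387 CPM in the nontarget and 30.6, 34.7 and 34.5 CPM in the knockdown libraries (log2FC 4.47, SE 0.348, edgeR adjusted p = 7.89e-08). ADAMTS9 rose from 15.9 ± 2.98 to 41.8 ± 2.8 CPM (log2FC 1.39, edgeR adjusted p = 4.21e-06) and the collagenase MMP13 from 0.924 ± 0.148 to 6.26 ± 3.39 CPM (log2FC 2.75, edgeR adjusted p = 8.01e-05), while MMP7 went from 5.45 ± 2.61 to 2.02 ± 0.977 CPM (edgeR adjusted p = 0.00656, 0.0544 without nontarget replicate 3). Over MMPs, their inhibitors and ADAMs together, 6 of 27 rose and 10 fell.

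Receptors and junctions that hold cells to the matrix and to each other were mostly lower. Of 15 integrins 8 fell and 3 rose, and of 10 laminins 5 fell and 1 rose. ITGB8, which activates latent TGF-beta, had 137, 85.7 and 104 CPM in the nontarget and 17.1, 11.7 and 14.4 CPM in the knockdown libraries (log2FC −2.91, SE 0.199, edgeR adjusted p = 1.83e-08). For ITGA4 the nontarget libraries summed to 123 counts and the knockdown libraries to 3, which is 40.5 times as many per normalized total (95% interval 13.5 to 199, counting error only). ITGB4, the hemidesmosome integrin, rose from 1.93 ± 0.365 to 8.81 ± 2.01 CPM (log2FC 2.17, edgeR adjusted p = 3.64e-05).

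Of 28 junction genes 19 fell and 2 rose, with a median of −0.58. CLDN1, a tight junction claudin that seals, had 247, 194 and 237 CPM in the nontarget and 35.9, 36.2 and 33.7 CPM in the knockdown libraries (log2FC −2.68, SE 0.115, edgeR adjusted p = 4.53e-11), whereas CLDN2, the cation-conducting claudin of the proximal tubule, had 13.8, 14.5 and 25.7 CPM in the nontarget and 61.9, 64.7 and 63.1 CPM in the knockdown libraries (log2FC 1.81, SE 0.191, edgeR adjusted p = 1.49e-06). The claudins thus moved apart without overlap in either. The gap junction gene GJA1 (connexin 43) fell from 12.7 ± 3.05 to 0.97 ± 0.107 CPM (log2FC −3.67, edgeR adjusted p = 1.49e-08) and cingulin (CGN) from 9.92 ± 1.25 to 1.49 ± 0.415 CPM (log2FC −2.69, edgeR adjusted p = 4.38e-07). EPCAM went from 30.9 ± 3.9 to 20.6 ± 2.4 CPM (edgeR adjusted p = 0.0237, lost in 4 of 6 fits with a library left out). Among keratins KRT7 fell from 13.9 ± 2.84 to 5.25 ± 3.39 CPM (log2FC −1.46, edgeR adjusted p = 0.0026), while KRT8 and KRT18, the main keratins here, went from 1992 ± 193 to 1722 ± 338 CPM and from 874 ± 18.1 to 752 ± 123 CPM (edgeR adjusted p = 0.278 and 0.192). They passed only when knockdown replicate 3 was left out.

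All 7 tested classical cadherins passed the test, 2 higher and 5 lower (3 lower without knockdown replicate 2). CDH6, the kidney cadherin K-cadherin, had 227, 208 and 294 CPM in the nontarget and 1698, 1739 and 1409 CPM in the knockdown libraries (log2FC 2.73, SE 0.214, edgeR adjusted p = 1.80e-07), among the largest rises in CPM of any gene. P-cadherin (CDH3) had 16.4, 14.5 and 16.8 CPM in the nontarget and 1.5, 0.586 and 1.35 CPM in the knockdown libraries (log2FC −3.76, SE 0.29, edgeR adjusted p = 4.36e-08). N-cadherin (CDH2) went from 278 ± 19.9 to 221 ± 14.5 CPM (edgeR adjusted p = 0.0155, lost in 2 of 6 fits with a library left out), and E-cadherin (CDH1), too low to be tested, had at most 0.904 CPM in the nontarget libraries and no count after knockdown. CLSTN2, a calsyntenin, had 256, 231 and 257 CPM in the nontarget and 0.231, 0.439 and 0.677 CPM in the knockdown libraries (log2FC −9.14, SE 0.244, edgeR adjusted p = 4.79e-14). Over the whole cadherin list 10 of 18 fell, and 6 without nontarget replicate 3. The protocadherin PCDH1 fell from 32.8 ± 3.13 to 6.37 ± 0.827 CPM (log2FC −2.36, edgeR adjusted p = 2.32e-08).

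Mesenchymal and contractile genes fell too, 9 of 16 against 1 that rose (2 without knockdown replicate 2, 0 without knockdown replicate 3, nontarget replicate 1 or nontarget replicate 2), with a median of −0.73. TAGLN (SM22) had 814, 781 and 733 CPM in the nontarget and 148, 137 and 183 CPM in the knockdown libraries (log2FC −2.32, SE 0.129, edgeR adjusted p = 8.13e-10), and MYL9, a myosin light chain, fell from 841 ± 48.2 to 335 ± 56.4 CPM (log2FC −1.33, edgeR adjusted p = 3.23e-07). SNAI2, the factor Slug, had 51.9, 54.4 and 45 CPM in the nontarget and 20.6, 21.4 and 14 CPM in the knockdown libraries (log2FC −1.42, SE 0.154, edgeR adjusted p = 1.90e-06). ZEB1 had overlapping groups (edgeR adjusted p = 0.794) and vimentin (VIM) went from 837 ± 27 to 973 ± 109 CPM (edgeR adjusted p = 0.105, 0.0349 with the replicate block). The falls thus took in epithelial junction genes and mesenchymal genes alike. CAVIN1, a coat protein of caveolae, fell from 1009 ± 109 to 403 ± 68.1 CPM (log2FC −1.32, edgeR adjusted p = 1.14e-06), with CAVIN3 from 43 ± 9.54 to 25.5 ± 7.82 CPM (log2FC −0.77, edgeR adjusted p = 0.00672) and PACSIN2 from 171 ± 11.7 to 119.6 ± 8.4 CPM (log2FC −0.52, edgeR adjusted p = 4.93e-04).

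Genes known from neurons changed in both directions. Of 45 axon guidance genes 13 rose and 9 fell, and of 31 genes of exocytosis and synaptic adhesion 6 rose and 12 fell (median −0.35), 6 of the falls and 3 of the rises being among 11 synaptic adhesion genes (median −1.24). EPHA3, an ephrin receptor, had 0.267, 0.463 and 0.258 CPM in the nontarget and 28.3, 31.8 and 19.6 CPM in the knockdown libraries (log2FC 6.29, SE 0.32, edgeR adjusted p = 2.69e-10), SEMA5A 6.15, 7.72 and 6.84 CPM in the nontarget and 56.7, 47.2 and 40.3 CPM in the knockdown libraries (log2FC 2.8, SE 0.269, edgeR adjusted p = 1.01e-06), and netrin-1 (NTN1) 8.69, 11.1 and 17 CPM in the nontarget and 0.461, 0.879 and 2.54 CPM in the knockdown libraries (log2FC −3.35, SE 0.45, edgeR adjusted p = 2.76e-05). The first pair rose and NTN1 fell. For PTPRN, a protein of secretory granules, the 3 nontarget libraries summed to 1 count and the 3 knockdown libraries to 414, which is 420 times as many per normalized total (95% interval 74.9 to 16612). For NRXN3, a synaptic adhesion protein, the sums were 281 and 1, a ratio of 277 (95% interval 49.4 to 10990). UNC13A, which primes vesicles for release, fell from 13.6 ± 2.999 to 1.29 ± 0.697 CPM (log2FC −3.37, edgeR adjusted p = 7.91e-08) and the synaptotagmin SYT12 from 10.4 ± 2.4 to 1.81 ± 0.339 CPM (log2FC −2.54, edgeR adjusted p = 4.21e-06).

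The labelled cell type was checked with 52 proximal tubule genes, of which 24 were tested and 18 had no count in the 6 libraries, among them LRP2 (megalin), ANPEP, AQP1 and the organic anion transporters SLC22A6 and SLC22A8. Of 25 transporters of the list 10 were tested, of which 4 fell, and these 10 summed to 380 to 419 CPM in nontarget and 241 to 280 CPM in knockdown libraries. The other classes had overlapping sums. Of 9 tested receptor and brush border genes 4 rose and 2 fell, with sums of 253.1 to 293.4 and 263.2 to 281.5 CPM. Of 5 tested enzymes and injury markers 1 fell, with sums of 189.7 to 196.5 and 178.7 to 198.0 CPM. PAX8, a kidney lineage factor, was present and fell from 250.4 ± 19.6 to 164 ± 16.8 CPM (log2FC −0.61, edgeR adjusted p = 2.04e-04). PAX2, too low to be tested, had 0.267, 1.7 and 0.516 CPM in the nontarget libraries and no count in the knockdown libraries. Of the tested genes 4 rose and 7 fell. The brush border peptidase DPP4 had 115, 102 and 113 CPM in the nontarget and 27.1, 26.4 and 24.4 CPM in the knockdown libraries (log2FC −2.08, SE 0.158, edgeR adjusted p = 3.58e-08) and MME (neprilysin) 39.4, 34.5 and 40.1 CPM in the nontarget and 89.4, 88.7 and 78.9 CPM in the knockdown libraries (log2FC 1.17, SE 0.115, edgeR adjusted p = 6.38e-07). DPP4 fell and MME rose. GGT1 rose from 36.2 ± 9.14 to 65.4 ± 10.4 CPM (log2FC 0.85, edgeR adjusted p = 6.03e-04) and the urea cycle enzyme ASS1 fell from 41.4 ± 6.89 to 12.6 ± 1.87 CPM (log2FC −1.71, edgeR adjusted p = 2.79e-07). HAVCR1 (KIM-1), a marker of tubule injury, went from 136 ± 11.6 to 162 ± 11.2 CPM (edgeR adjusted p = 0.112), and SLC5A2 went from 9.997 ± 1.57 to 14.2 ± 2.56 CPM (edgeR adjusted p = 0.0609, 0.0214 with the replicate block).

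Markers of other cell types were low in both groups, with exceptions in smooth muscle and podocyte markers. The 10 immune markers summed to 0.267 to 1.42 CPM in nontarget and 0.346 to 0.846 CPM in knockdown libraries, with PTPRC, CD3E and TYROBP at 0. Fibroblast markers summed to 26.7 to 34.0 and 28.5 to 37.2 CPM, with PDGFRA and FAP at 0. Neuronal markers summed to 14.2 to 19.1 and 16.3 to 21.1 CPM, endothelial markers to 7.49 to 7.74 and 0.231 to 0.677 CPM, and distal tubule markers to 3.48 to 6.33 and 0.439 to 1.02 CPM. The exceptions were the smooth muscle list, at 821 to 884 CPM without and 187 to 258 CPM with knockdown, of which TAGLN makes up most, and the podocyte list, at 186 to 293 and 90.4 to 128 CPM, with NPHS1 and WT1 at 0. By the labels all libraries are of HK2 cells, so these levels do not show that smooth muscle cells or podocytes were present. In bulk RNA a smaller share of cells with a transcript and less of it per cell cannot be told apart. The cause of these falls was not tested.

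Among developmental factors the HOXA cluster stood out in direction, with 8 of 11 tested genes higher and 0 lower (median 1.32). HOXA5 had 15.8, 11.4 and 17.8 CPM in the nontarget and 74.7, 69.8 and 87 CPM in the knockdown libraries (log2FC 2.35, SE 0.163, edgeR adjusted p = 1.20e-08), HOXA7 9.76, 10.4 and 12.3 CPM in the nontarget and 35.8, 39.1 and 46.2 CPM in the knockdown libraries (log2FC 1.89, SE 0.148, edgeR adjusted p = 5.14e-08) and HOXA4 1.2, 2.78 and 3.23 CPM in the nontarget and 10.5, 12.3 and 19.97 CPM in the knockdown libraries (log2FC 2.54, SE 0.401, edgeR adjusted p = 1.66e-04). Every knockdown library was above the nontarget range in each. HOXA11 rose from 2.04 ± 0.33 to 7.04 ± 0.857 CPM (log2FC 1.79, edgeR adjusted p = 2.05e-05). Of 7 HOXB genes 4 rose and 1 fell (3 with the replicate block, 2 without nontarget replicate 1 or 3). None of 5 HOXC and 4 HOXD genes passed edgeR's test, 0 of them at an unadjusted p below 0.05, with the replicate block or by DESeq2, and 1 HOXD gene fell without knockdown replicate 1. The HOXA genes lie side by side on chromosome 7, whose genes as a whole were higher.

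Of 24 kidney developmental factors 5 rose and 5 fell (2 without knockdown replicate 1 or nontarget replicate 3, 3 without knockdown replicate 2). SOX9, a factor of tubule regeneration, had 2.94, 2.47 and 3.1 CPM in the nontarget and 10.3, 13.5 and 17.1 CPM in the knockdown libraries (log2FC 2.23, SE 0.247, edgeR adjusted p = 2.44e-06). TFAP2A rose from 16.5 ± 5.02 to 35.5 ± 5.91 CPM (log2FC 1.09, edgeR adjusted p = 0.00212) and SIX2, a factor of nephron progenitors, from 2.96 ± 0.371 to 8.24 ± 4.13 CPM (log2FC 1.46, edgeR adjusted p = 0.0045). TCF21 went from 10.8 ± 1.04 to 5.52 ± 0.329 CPM (edgeR adjusted p = 0.0377) and lost its call in all 6 fits with a library left out. Of 33 Polycomb and DNA methylation genes 5 rose (8 with the replicate block or without nontarget replicate 1) and 4 fell. TET2, which oxidizes methylcytosine, had 2.41, 2.63 and 1.42 CPM in the nontarget and 11.2, 13.2 and 8.63 CPM in the knockdown libraries (log2FC 2.37, SE 0.256, edgeR adjusted p = 1.91e-06), and DNMT3B, which sets it, had 42, 44.2 and 51.4 CPM in the nontarget and 13.5, 12.2 and 17.4 CPM in the knockdown libraries (log2FC −1.68, SE 0.168, edgeR adjusted p = 7.68e-07). PHF19, a Polycomb cofactor, fell from 139 ± 8.87 to 64.1 ± 7.74 CPM (log2FC −1.12, edgeR adjusted p = 6.02e-07).

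Of 20 sirtuin and forkhead genes 4 rose and 7 fell (4 without knockdown replicate 1 or nontarget replicate 3). FOXN3 fell from 21.4 ± 1.19 to 7.28 ± 1.004 CPM (log2FC −1.55, edgeR adjusted p = 2.79e-07) and FOXO3, which promotes stress resistance, from 34.9 ± 0.884 to 18.1 ± 2.28 CPM (log2FC −0.94, edgeR adjusted p = 1.83e-05). FOXO4 went from 9.59 ± 1.9 to 14.8 ± 1.63 CPM (edgeR adjusted p = 0.0105, 0.0545 without nontarget replicate 2). Of 38 cilium genes 5 rose and 5 fell (2 fell without nontarget replicate 1, and 3 without knockdown replicate 1 or 3). IFT88, needed to build cilia, rose from 4.04 ± 1.27 to 13.6 ± 4.62 CPM (log2FC 1.75, edgeR adjusted p = 9.73e-05), and the Hedgehog factors GLI3 and GLI2 went opposite ways, GLI3 from 3.9 ± 0.642 to 11.6 ± 0.519 CPM (log2FC 1.57, edgeR adjusted p = 1.33e-05) and GLI2 from 14.4 ± 2.47 to 5.5 ± 2.4 CPM (log2FC −1.44, edgeR adjusted p = 7.84e-04).

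Across all genes, listed above or not, protein-coding genes past 2.5-fold with a mean of at least 50 counts over the 6 libraries and groups that do not overlap numbered 103 rises and 225 falls, from which the 15 largest of each were taken. EDIL3, an integrin-binding matrix protein, had 4.68, 1.85 and 2.71 CPM in the nontarget and 199.7, 176 and 178 CPM in the knockdown libraries (log2FC 5.88, SE 0.258, edgeR adjusted p = 1.48e-10). The formin FHDC1 had 0.134, 0.463 and 1.03 CPM in the nontarget and 44.3, 46.4 and 51.3 CPM in the knockdown libraries (log2FC 6.37, SE 0.4001, edgeR adjusted p = 8.86e-09), and MLANA, a melanosome protein and known MITF target in melanocytes, 0.134, 0.463 and 0.387 CPM in the nontarget and 28.3, 24.2 and 19.5 CPM in the knockdown libraries (log2FC 6.14, SE 0.354, edgeR adjusted p = 1.29e-09). All 3 were near or below 5 CPM in the nontarget libraries. ADGRL2 (latrophilin-2) rose from 12.3 ± 0.965 to 168 ± 16.9 CPM (log2FC 3.76, edgeR adjusted p = 6.21e-11), VSTM4 from 1.69 ± 0.443 to 30.3 ± 2.75 CPM (log2FC 4.14, edgeR adjusted p = 1.82e-09), PTK7, a WNT co-receptor, from 1.83 ± 0.455 to 25.8 ± 3.31 CPM (log2FC 3.82, edgeR adjusted p = 1.03e-08) and the coregulator MN1 from 4.56 ± 0.857 to 41.4 ± 1.68 CPM (log2FC 3.17, edgeR adjusted p = 5.50e-10).

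Among the falls, TCIM had 37.4, 28.3 and 27.5 CPM in the nontarget libraries and no count after knockdown, so that with a floor of 3 counts over the group it was at least 222-fold lower. For NEURL1, a ubiquitin ligase, the sums were 298 counts without and 2 with knockdown, a ratio of 147 (95% interval 40.3 to 1220). FAM110B had 21.7, 27.5 and 29.3 CPM in the nontarget and 0.231, 0 and 0.338 CPM in the knockdown libraries (log2FC −6.998, SE 0.331, edgeR adjusted p = 1.18e-10). GLDC, which breaks down glycine in mitochondria, had 36.1, 36.6 and 43.6 CPM in the nontarget and 1.5, 1.46 and 1.35 CPM in the knockdown libraries (log2FC −4.73, SE 0.185, edgeR adjusted p = 1.51e-11). These 4 genes were nearly silent after knockdown. RAP1GAP2, EMP1, XK and CYFIP2 fell by −4.42, −4.24, −4.12 and −4.09 on the log2 scale (edgeR adjusted p = 3.81e-08, 3.42e-09, 7.02e-08 and 1.37e-09). Among abundant genes, HMGA2, an architectural chromatin protein, had 590.4, 444 and 461 CPM in the nontarget and 73.9, 71.3 and 67 CPM in the knockdown libraries (log2FC −2.82, SE 0.137, edgeR adjusted p = 1.49e-10), while RRAD, a small GTPase, rose from 102 ± 37.5 to 333 ± 92 CPM (log2FC 1.7, edgeR adjusted p = 8.04e-05) and GALNT10 from 109 ± 1.45 to 335 ± 5.54 CPM (log2FC 1.62, edgeR adjusted p = 5.30e-10).

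Genes that lie near each other changed together in places. The nuclear chromosome with the highest median log2FC was 7, at 0.25 (201 of 672 tested genes higher, 46 lower). Also high were 2 at 0.19 (265 and 107 of 932), 17 at 0.16 (225 and 93 of 833) and 5 at 0.13 (145 and 82 of 606), a median that ran from 0.08 (without nontarget replicate 3) to 0.18. Chromosome 17 lay above 2 without knockdown replicate 1, knockdown replicate 2 or nontarget replicate 3, and 5 above 17 without knockdown replicate 3 or nontarget replicate 1, so these 3 have no fixed order. The lowest was 14, at −0.18 (15 higher and 109 lower of 473), except that without knockdown replicate 3 or nontarget replicate 1 chromosome 19 lay lower, at −0.27 or −0.21. On chromosome 7 the 3 knockdown libraries lay 0.21 to 0.26 above the nontarget mean in their median gene, and the nontarget libraries within 0.02 of it, so the shift exceeded the spread. On chromosomes 7, 9, 11, 16, 17, 19, 20 and 22 replicate 3 was the highest library of both groups. Chromosome 19 had 48 genes higher and 195 lower of 1009 and a median of −0.14, which ran from −0.27 to −0.06 with a library left out (−0.06 without nontarget replicate 3, −0.08 without knockdown replicate 1). Its SD between libraries of a group was 0.159, while each knockdown library lay below the nontarget library of its number, at −0.24 against −0.13, −0.21 against −0.00164 and 0.09 against 0.13.

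**Figure D3:**
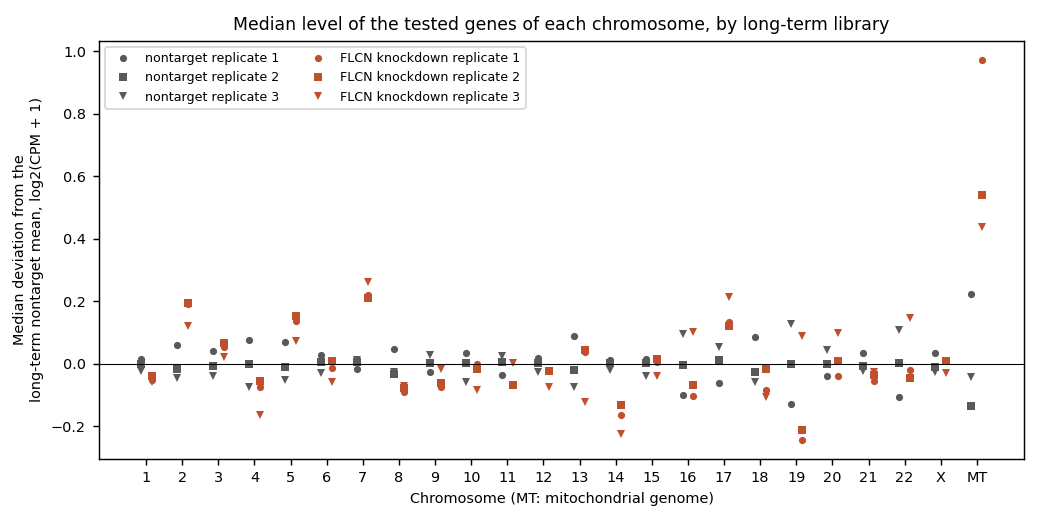
Each point gives, for 1 library, the median over a chromosome's tested genes (horizontal axis) of the deviation from the long-term nontarget mean on the log2(CPM + 1) scale (vertical axis), grey for nontarget and orange for FLCN knockdown, with marker shape for the replicate. On chromosomes 2, 5, 7 and 17 and in the mitochondrial genome all knockdown points lie above the nontarget points, narrowly on 5. On chromosomes 1, 8, 14 and 21 they lie below them, narrowly on 21, and on chromosome 19 both groups spread by replicate.

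In runs of 41 neighbouring tested genes, the strongest shift was a fall on chromosome 4, from 169729465 to 186088069 (HPF1 to TLR3), where 35 genes fell and 1 rose and the median was −1.05. Its medians in the libraries were −0.89, −0.99 and −0.94 after knockdown and 0.05, −0.02 and −0.02 in nontarget cells. This stretch holds ACSL1 and TLR3, described above. In the short-term comparison the same genes had a median of −0.09. The highest run lay on chromosome 17, from 70053429 to 75765711 (KCNJ16 to GALK1), with 28 genes higher, 2 lower and a median of 0.69, and holds SOX9, RPL38, ATP5PD and ITGB4. Its short-term median was 0.06. On chromosome 2 the runs from 53767792 to 63827843, with RPS27A and EFEMP1, and from 85561562 to 96039451 had medians of 0.66 each, with 26 and 21 genes higher, and short-term medians of 0.24 and 0.37. The other low runs, on chromosome 19 from 55675226 to 57717301 and from 51927147 to 53990215, hold mostly zinc finger genes, 21 of 41 lower and 0 higher in each, with medians of −0.71 and −0.62. Their short-term medians were −0.358 and −0.355, so that on chromosomes 2 and 19 a shift of the same sign stood in the short-term comparison too. DNA copy number was not measured, and its part in these shifts was not tested.

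The long-term effect differed from the short-term effect in 1872 genes (13.4%) by edgeR's interaction test, and in 2879 with the replicate block. In 290 of the 1872, both effects passed on their own, and in 177 of these they had opposite signs. Most of these, 144, rose after short-term and fell after long-term knockdown, and 33 did the reverse. FN1 rose short-term by 0.65 and fell long-term by −2.52, with 1586 ± 314 CPM without and 2492 ± 230.0 CPM with short-term knockdown. THBS2 had 44.1 ± 8.3 CPM without and 96.7 ± 23.2 CPM with short-term knockdown, and PCDH1 had 2.1 ± 0.638 CPM without and 12.2 ± 1.16 CPM with short-term knockdown. All 3 rose and then lay below their nontarget level in the long-term cells.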

How the data were processed

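Members and gene lists were chosen with earlier results of these data known, so no list is independent evidence of its own direction. Polyadenylated RNA was sequenced on a MiSeq from TruSeq RNA v2 libraries. The authors mapped the trimmed reads with STAR, summarised them as counts per gene with featureCounts and ran DESeq2, and the deposited raw counts are per gene and library with no normalization. Versions and the strand setting are not given in the sources used here. The authors' normalized values, deposited as a score, are counts divided by 1 size factor per library and rounded, and were not used. The table of the series and the files of single libraries differed in 0 values.

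Counts were tested in R 4.3.3 with edgeR 4.0.16 (TMM factors, filterByExpr with the 4 groups, robust quasi-likelihood fit, prior count 0.125), with all 12 libraries in 1 model and a term per group, 2-sided and adjusted by Benjamini-Hochberg over 13959 genes. The 58288 gene IDs were looked up in GENCODE release 29 (GRCh38), where 55661 had an identical version, 2364 a different one and 263 (0.0126% of counts) no entry. The biological coefficient of variation was 12%. Intervals and floors (3 counts over a group) cover counting error only. Promoters and their positions come from RefSeq on GRCh38.p14. Per-library deviations used log2(CPM + 1).

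The genes named were those fixed by list, up to 4 members of each of 50 lists with the largest change among those past the threshold and with a mean of at least 30 counts in the higher group, the 15 largest rises and falls overall (mean of at least 50 counts, groups apart), and the 10 largest in CPM. Some of the genes so chosen are not reported here. The replicate numbers come from the sample titles. Deviations from the group means correlated across 9369 genes by 0.56, 0.24 and 0.69 between the same-numbered libraries of the 2 groups. Knockdown replicate 2 correlated more with nontarget replicate 1 (0.39), so the pairing by number was not clear for it. The main fit had no term for the number, and a fit with the number as a block was an alternative. Others were RLE factors, DESeq2 1.42.0, other filters on low counts, the 6 long-term libraries alone, other fold limits and each library left out.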

Additional observations from a re-analysis of the deposited data

Results flagged for a closer look

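By edgeR's interaction test 1872 genes had a long-term effect of knockdown that differed from the short-term effect. Among the named genes reported here, 18 had effects past the threshold in opposite directions, higher after short-term and lower after long-term knockdown. Each value below is the long-term minus the short-term log2 fold change. Of the folliculin axis, FNIP2 gave −2.22 and RRAGD −1.81, whose long-term call was lost in 3 of 6 fits with a library left out. Regulators of the cell cycle gave −5.99 (CCND1) and −3.79 (CDKN1C), the oxygen-sensing factor EPAS1 gave −1.8 and ADM, a target of the HIF pathway, −4.53. The kidney factor PAX8 gave −0.942. Matrix genes gave −3.17 (FN1), −6.95 (FBLN2), −5.78 (THBS2) and −3.03 (MMP7), and MMP7 lost its long-term call without nontarget replicate 3. Adhesion genes gave −5.34 (CDH3), −4.91 (PCDH1) and −3.37 (CGN). The receptor ERBB3 gave −3.71, GLDC −5.52 and CYFIP2 −4.73. TCIM gave −11.9, a fitted value that depends on the prior count since no count was left after long-term knockdown. The 2 effects rest on different nontarget libraries, and passage number and clone cannot be told apart from the duration of knockdown.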

How the results depend on the processing

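The 922 genes past 2.5-fold were 290 among genes of at least 10 CPM (83 higher, 207 lower), where fewer genes were tested, 1385 at a fold limit of 2 and 488 at 4, and 924 to 1008 with a library left out. A prior count of 2, chosen after seeing the data, gave 820. Of the genes past 2.5-fold, 28.4% to 33.3% were higher under the other normalizations, tools, filters and sets of libraries, and of those past 4-fold 27.0% (132 of 488). With the replicate block 5137 genes passed in place of 4119, and 2879 in place of 1872 differed between long and short term. Beside the list counts given with the results, the block called IGFBP3, VIM and SLC5A2 and lost no named gene. DESeq2 lost ERN1, no filter lost AREG, IFIT1, ISG15, SIRT1 and ERN1, and the 6 long-term libraries alone lost AREG, SIRT1, PRR5 and OSGIN1 and gained IGFBP3. The causes were not tested. No named gene that passed the test changed sign, but genes that did not pass, such as FNIP1 and TFEB, and the medians of chromosomes 6, 13, 15, 16, 20, 22 and X did with a library left out. With a library left out, chromosome medians that moved by more than the spread between libraries ran from −0.0599 to −0.0413 (1), 0.0765 to 0.176 (5), −0.0514 to 0.00639 (6), −0.106 to −0.0478 (8), −0.0814 to −0.0288 (9), −0.0681 to −0.0166 (12), −0.039 to 0.00242 (15) and −0.0569 to −0.0272 (21). Counts from single-library files were the same values and gave no separate fit. Totals of 6031734 to 8991051 counts leave genes of a few CPM with few counts per library, so small differences in them may have been missed, which was not tested.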
